A study of Sus scrofa with 12 samples.

Results

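The cuts described here are nuclear cleavage positions that a named pig microRNA (miRNA) was paired with in loin muscle, and whose degraded RNA end matched few places in the genome. They were selected by 3 conditions on the deposited tables: a chromosome other than the mitochondrial one, a miRNA name with the pig prefix, and a fragment abundance divided by its weighted abundance of at most 70. That ratio is called matching positions below. Overlapping windows of 1 place enter it separately, so it is not a count of separate places in the genome. At CA3 with miR-499-5p it was 57 in Hampshire low MM replicate 2, where 47 windows were listed at 1 position. Overlapping windows of the same cut were counted once, by miRNA, library and the sum of window start and cleavage position, and each such unit is called an interaction. The selection held 707 of the 2935 interactions in all 12 tables (24.1%), or 7812 of 19855 listed windows. They fell on 471 positions, paired with 120 miRNA names in 488 combinations. Another 740 nuclear interactions of named miRNAs matched more than 70 positions, 110 were mitochondrial and 1379 belonged to small RNAs without a name. Of the nuclear ones, 1 interaction had windows on both sides of the limit, so that 1446 were distinct.

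Each library came from loin muscle of a female pig labelled day 180 and slaughtered at 100 ± 2 kg, and degraded ends were captured by parallel analysis of RNA ends (PARE). The breeds were Hampshire, Pietrain and Polish Large White, with 2 low-MM and 2 high-MM libraries in each by the sample titles. The labels leave MM undefined (muscle mass is a phrase of the title of the series). For the Pietrain libraries the table tab names exchange high and low, while the shear force labels (light or heavy) follow the titles. The labels give no allele, treatment or litter, and they do not say of each library that it is a separate animal.

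A miRNA directs an Argonaute protein to a partly complementary RNA. In animals most such pairing lowers translation and RNA stability without a cut, while extensive pairing lets Argonaute 2 slice the target inside the paired stretch. The slice leaves an RNA end with a 5′ phosphate, which PARE captures together with the ends left by ordinary decay. PAREsnip lists an end as a candidate slice when a small RNA pairs across it, and grades it. Category 0 is the strongest of its grades and category 4 the weakest, given to an end seen once. A lower alignment score stands for fewer mismatches. No mature miRNA sequence, target sequence or genome was available here, so pairing is given by the deposited score alone. Positions are given as listed, on a build not given in the sources used here, and neither exon, intron nor UTR is recorded for them.

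The selection rule itself fixes the numbers of matching positions, which are given here as a description. Inside the limit the median was 12.92 matching positions, with quartiles of 5 and 32.97, and 556 interactions matched at most 35. Outside it the median was 317 and the highest value 2743. Only 4 interactions lay above 70 and up to 100, and 111 above 100 and up to 140, against 624 above 140. The values nearest the limit inside were 70 at TRPS1 with miR-574-3p, 69.41 at HBEGF, CCDC12 and CCDC86/PTGDR2 with miR-4331-5p, and 66 at ENO3 with miR-769-5p. The nearest outside were 74 at NOL9 with miR-181b and at a scaffold position with miR-4334-3p, 80.34 at RFXANK with miR-4331-5p and 88 at TTN with miR-935.

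**Figure D1:**
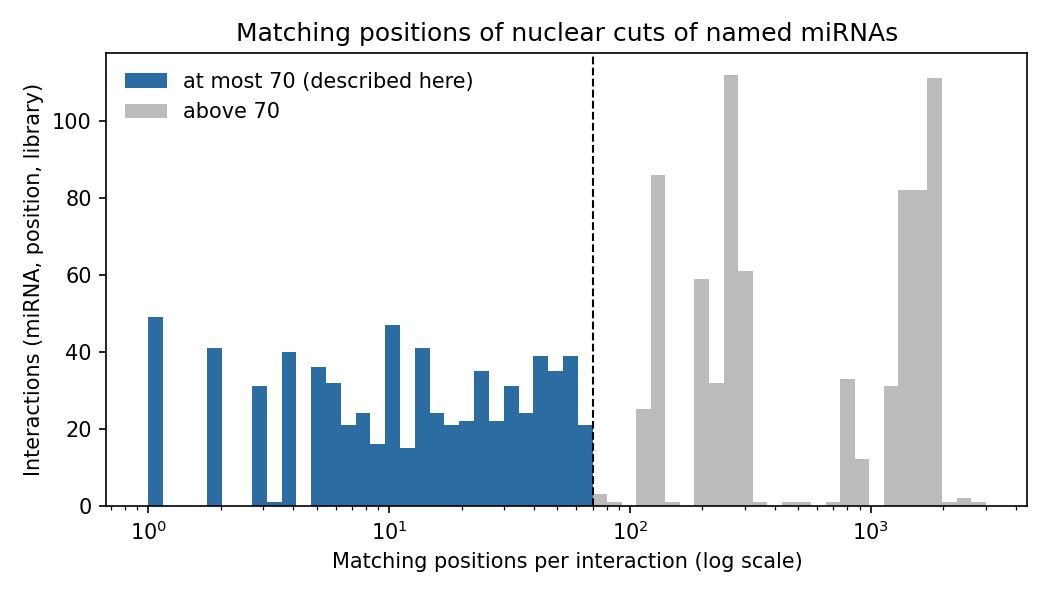
Number of matching positions per nuclear interaction of a named miRNA (x axis, log scale) against the number of interactions (y axis), with the limit of 70 as a dashed line. The interactions inside the limit have a median of 12.92 and those outside a median of 317, with 4 between 70 and 100.

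A low number of matching positions did not always go with values found at 1 place only. In 152 of the 707 interactions (21.5%), another position more than 200000 bases away or on another chromosome had the same miRNA, abundance and matching positions in the same library. The other 555 had no such equal value. Equal values were found for 101 of the 166 interactions of miR-4331-5p, 18 of the 24 of miR-660 and 13 of the 17 of miR-145-5p. HBEGF, on chromosome 2, and CCDC12, on chromosome 13, had the same abundance and matching positions in each of the 5 libraries that listed CCDC12. Whether equal values coincide without a shared fragment was not tested, so a single place of origin is not shown for these 152.

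The interactions with and without an equal value elsewhere also differed in abundance. With one, 97.4% of abundances were multiples of 20 and the median was 20. Without one, 18.0% were multiples of 20, the median was 2, 33.9% were exactly 1 and 75.7% lay below 10. Among the other nuclear interactions 98.9% were multiples of 20, with a median of 110. The deposited abundance was treated as a score here and was not read as reads, and the low values leave little room to compare levels.

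Most positions were listed once. Of the 471, 366 (77.7%) were listed in 1 library, 57 in 2, 22 in 3, 9 in 4, 7 in 5 and 6 in 6, and single positions in 7, 9, 10 and 11 libraries. The 48 positions in at least 3 libraries named 47 genes. All 48 were listed in at least 2 breeds, 30 of them in all 3. A position not listed in a library is unlisted, since the tables hold only retained interactions, and fewer cells of a type cannot be told apart from less RNA per cell in whole muscle. Of the 48 recurrent positions 37 had an equal value elsewhere in no library, and 11 had one in at least 1 library, 9 of these with miR-4331-5p.

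**Figure D2:**
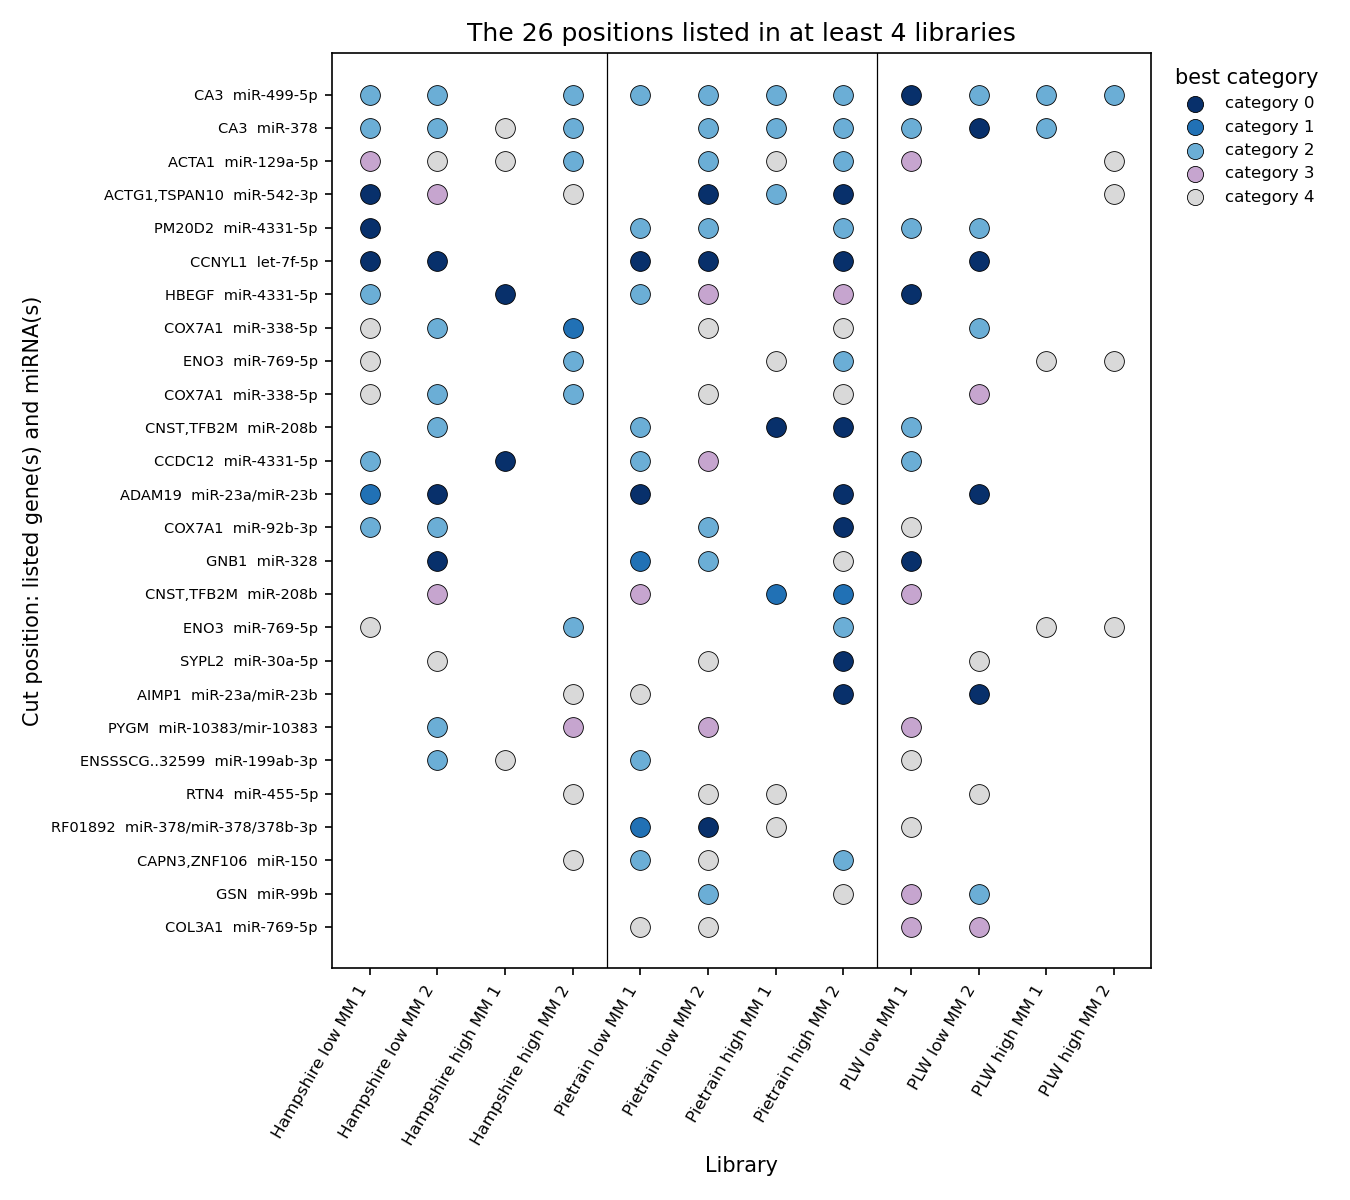
The 26 positions listed in at least 4 libraries (y axis, genes listed in any library, and miRNAs) by library (x axis), with each filled circle a library that listed the position, coloured by its best category. CA3 has the fullest row, with 11 libraries, and the CCNYL1 row holds category 0 in all 6 of its libraries.

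The most recurrent cuts lay in CA3 (ENSSSCG00000006141), the carbonic anhydrase abundant in slow muscle fibres. With miR-499-5p, a miRNA encoded in a myosin gene, position 51227874 of chromosome 4 was listed in 11 libraries at normalized abundances of 0.00263 to 0.0672, and with miR-378 position 51227536 was listed in 10 at 0.00884 to 0.0944. ACTA1, skeletal muscle actin, was listed with miR-129a-5p at position 60414250 of chromosome 14 in 9 libraries, at 0.00234 to 0.0631. ACTG1, a cytoplasmic actin, was listed together with the tetraspanin TSPAN10 at position 1323150 of chromosome 12, with miR-542-3p, in 7. Low- and high-MM libraries overlapped at each of these, with 6 low and 5 high at the first, 5 and 5 at the second, 4 and 5 at ACTA1 and 3 and 4 at ACTG1. Many of these listings had weak grades. Category 0 to 2 was given in 11 and 9 libraries at the CA3 positions, but in 3 of 9 at ACTA1 and 4 of 7 at ACTG1. Category 0 itself was given in 1 library at each CA3 position. The positions most like CA3 with miR-499-5p in the libraries that listed them were CA3 with miR-378 (9 shared of 12 in either, Jaccard index 0.75), ACTA1 (8 of 12, 0.667) and ACTG1 (7 of 11, 0.636). These are also the next positions by number of libraries.

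CCNYL1 (ENSSSCG00000024696), which encodes a relative of cyclin Y, was paired with let-7f-5p at position 110911270 of chromosome 15 and was category 0 in every library that listed it. Its abundance was 10 in both Hampshire low-MM libraries, 34 and 6 in the Pietrain low-MM libraries, 48 in Pietrain high MM replicate 2 and 7 in Polish Large White low MM replicate 2. On the authors' normalized scale these values were 0.249, 0.106, 0.163, 0.136, 0.147 and 0.0231. The Polish Large White value was the lowest and the other 5 lay between 0.106 and 0.249. Matching positions were 3 to 13, no equal value occurred elsewhere, and the alignment score was 4.5, the highest among the selected interactions. In the Polish Large White library the same position carried no gene.

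ADAM19 (ENSSSCG00000017052), a membrane-anchored metalloprotease, was listed at position 65814595 of chromosome 16 with miR-23a in 5 libraries and also with miR-23b, which has the same seed, in 3 of them. Its normalized abundance was 0.524 and 0.255 in Hampshire low MM, 0.994 in Pietrain low MM replicate 1, 0.842 in Pietrain high MM replicate 2 and 0.139 in Polish Large White low MM replicate 2. The Pietrain values were the 2 highest, and the only high-MM value lay inside the low-MM range. The cut was category 0 in 4 libraries and category 1 in Hampshire low MM replicate 1, at 1 to 4 matching positions.

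GNB1 (ENSSSCG00000021890), a beta subunit of heterotrimeric G proteins, was listed with miR-328 at position 63868133 of chromosome 6 in 5 libraries. Its abundance was 1 to 5, and its category was 0 in Hampshire low MM replicate 2 and Polish Large White low MM replicate 1, 1 and 2 in the Pietrain low-MM libraries and 4 in Pietrain high MM replicate 2. AIMP1 (ENSSSCG00000024168), a scaffold protein of the tRNA synthetase complex, was listed with miR-23a or miR-23b at position 115451671 of chromosome 8 in 4 libraries. It was category 0 in Pietrain high MM replicate 2 and Polish Large White low MM replicate 2, at abundances of 6 and 3, and category 4 in the other two. Category moved between libraries at both cuts. At AIMP1 the low- and high-MM libraries overlapped in category and in abundance, at 1 and 3 in low MM and 1 and 6 in high MM. The normalized abundance was 0.0108 and 0.0379 in the 2 high-MM libraries and 0.00296 and 0.00613 in the 2 low-MM libraries, without overlap. Matching positions, by which it is divided, were 17 and 11 in high MM and 21 in both low-MM libraries. By the tab names the Pietrain libraries change groups and the normalized values overlap.

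**Figure D3:**
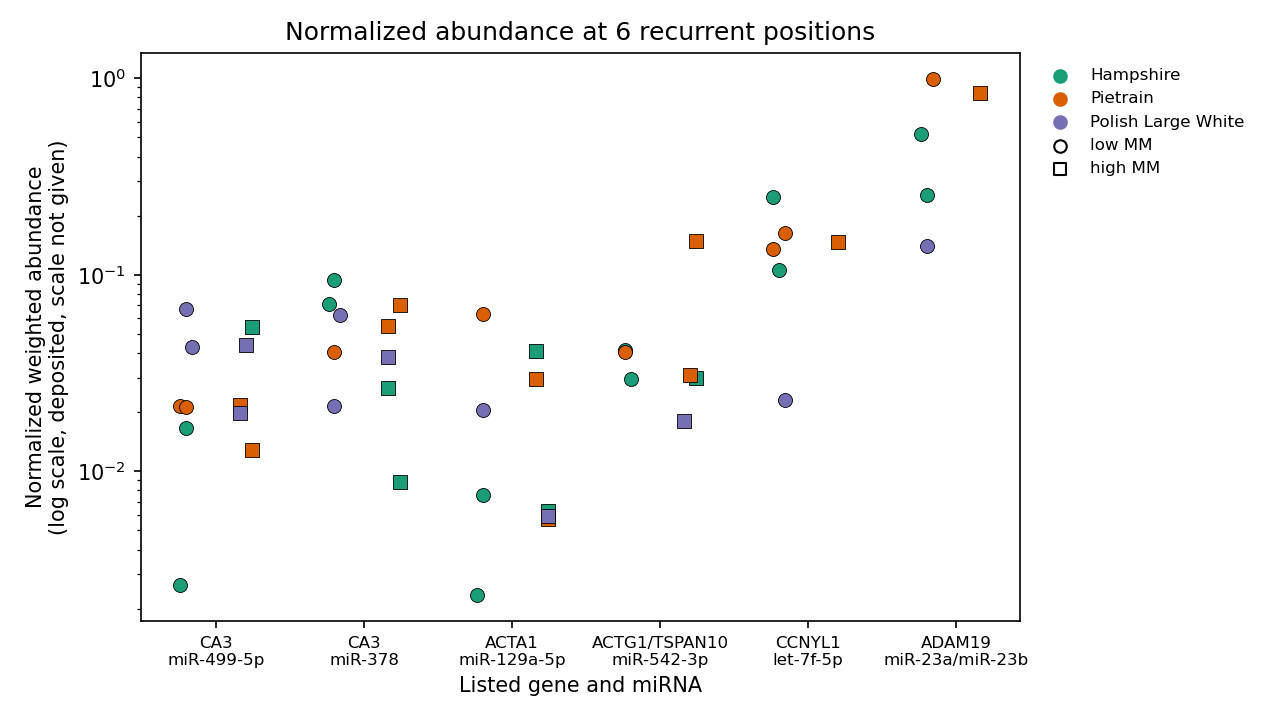
Normalized weighted abundance as deposited (y axis, log scale) at 6 recurrent positions (x axis), 1 point per library that listed the position, with breed by colour, low MM as circles and high MM as squares. Low- and high-MM points overlap at each position, and heights are not comparable between positions, since the weighted value is divided by matching positions, 1 to 4 at ADAM19 and 47 to 57 at CA3 with miR-499-5p.

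TFB2M, a mitochondrial transcription factor, was listed with miR-208b, which is encoded in the slow myosin gene MYH7, at the neighbouring positions 19029146 and 19029147 of chromosome 10, in the same 5 libraries. CNST, a connexin-trafficking protein, was listed beside it in Pietrain low MM replicate 1. At position 19029147 the normalized abundance was 0.205 in Hampshire low MM replicate 2, 0.0956 in Pietrain low MM replicate 1, 2.26 and 1.33 in the Pietrain high-MM libraries and 0.0522 in Polish Large White low MM replicate 1. The 2 Pietrain high-MM libraries lay above all 3 low-MM libraries, and they alone were category 0. By the tab names both are low-MM libraries. Their fragments matched 3 and 3.68 positions, against 39 to 46 in the other 3 libraries. All abundances at the pair of positions were multiples of 20.

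Of the cuts with miR-4331-5p, the miRNA with the most positions, position 57218020 of chromosome 1 was listed in 6 libraries, 5 low and 1 high MM, and carried PM20D2 (ENSSSCG00000004314), an M20-family peptidase, in 4 of them and no gene in the other two. HBEGF (ENSSSCG00000014362), a ligand of the epidermal growth factor receptor, was listed at position 142103715 of chromosome 2 in 6, 4 low and 2 high. CCDC12 was listed at position 29787601 of chromosome 13 in 5. Equal values elsewhere were found in 2 of the 6 libraries at PM20D2, 6 of 6 at HBEGF and 5 of 5 at CCDC12, so the place of the last 2 cuts is not settled by the tables.

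Of the 15 gene lists, glycolysis and glycogen turnover held the most recurrent positions. Of its 28 genes 9 were listed, at 14 positions, 5 of them in at least 3 libraries. Those 5 include a pair of ENO3 positions that may be a single cut, as described below. ENO3 (ENSSSCG00000017904), the muscle enolase, was listed with miR-769-5p at position 51958486 of chromosome 12 in 6 libraries, 1 low and 5 high MM by the titles but 3 and 3 by the tab names. Its abundance there was 1 to 3, and only 2 of these libraries had category 0 to 2. PYGM (ENSSSCG00000013022), muscle glycogen phosphorylase, was listed with miR-10383 at position 7420423 of chromosome 2 in 4 libraries, at abundances of 2 to 7 and 56 to 64.5 matching positions. PFKFB1 (ENSSSCG00000024814), which makes and degrades the activator of phosphofructokinase, was category 0 in all 3 libraries that listed it with miR-6782-3p at position 47799856 of chromosome X. These were Hampshire low MM replicate 1, Pietrain low MM replicate 2 and Polish Large White low MM replicate 1, with abundances of 2, 4 and 2. GPI, the glucose 6-phosphate isomerase, was listed with the same miRNA in 3 libraries, at category 3 or 4. The remaining 5 were GYS1 and PGAM2, in 2 libraries each, and PFKFB3, PGM1 and PKM, in 1 each.

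A list of 9 genes of energy buffering, made up of creatine and adenylate enzymes with CA3, myoglobin and a nucleotide carrier, had 3 listed, CA3, AK1 and ADSSL1. CA3, which is no creatine or adenylate enzyme, held 2 of its 3 recurrent positions. AK1, adenylate kinase 1, was listed with miR-376c-3p in 3 libraries, all low MM, at abundances of 11, 4 and 9 and category 3 throughout. Oxidative phosphorylation genes of the nucleus were represented by 1 gene of 38. That gene was COX7A1 (ENSSSCG00000037792), the muscle form of a cytochrome c oxidase subunit, which had 3 recurrent positions on chromosome 6: 45519354 and 45519706 with miR-338-5p in the same 6 libraries, and 45519295 with miR-92b-3p in 5. The miR-338-5p positions may be a single cut, as described below, and had abundances of 1 to 3. Category 0 to 2 was given in 2 libraries at 45519354, 3 at 45519706 and 4 at 45519295. Of 30 genes of the TCA cycle and fatty acid oxidation 4 were listed, with PDHA1, a subunit of pyruvate dehydrogenase, in 3 libraries with miR-184 and ACSL1, BDH1 and MDH1 in 1 each.

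Contractile genes of the thin filament, thick filament and Z-disc lists held 30 positions, of which 3 (10%) reached 3 libraries, against 10.2% of all 471. Of 16 thin filament genes 6 were listed, with ACTA1 in 9 libraries, TPM1, a tropomyosin, in 6 libraries over 4 positions, TPM2 in 3 and NEB (nebulin), TMOD4 and TNNI2 in 1 or 2. Of 18 thick filament and M-band genes 6 were listed at 11 positions, and none of these positions reached 3 libraries. MYH2, a fast myosin heavy chain, and MYOM2, an M-band protein, were each listed in 3 low-MM libraries over several positions. Of 26 genes of the Z-disc and costamere 5 were listed. Position 128960294 of chromosome 1 was listed with miR-150 in 1 Hampshire and 3 Pietrain libraries at abundances of 1 to 3. It carried CAPN3, the muscle calpain, in 2 Pietrain libraries, ZNF106 in 1 and no gene in the Hampshire library.

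Calcium handling was represented by 5 of 25 genes. ATP2A1, the calcium pump of fast fibres, was listed with miR-4331-5p in 3 low-MM libraries at category 2. SLN, the pump inhibitor sarcolipin, was listed in 3 libraries over 2 positions. Outside the lists, SYPL2, a protein of the triad membranes, was listed with miR-30a-5p in 4 libraries, at category 4 in 3 of them and category 0 in Pietrain high MM replicate 2. RTN4, an endoplasmic reticulum reticulon, was listed with miR-455-5p in 4 libraries, always at category 4 with an abundance of 1. HHATL, a protein of the sarcoplasmic reticulum, was listed with miR-95 in 3 low-MM libraries, always at an abundance of 2, category 2 and 3 to 5 matching positions. At ATP2A1 and HHATL all windows were of the deeper class described below, which 5 high-MM libraries lack.

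Extracellular matrix genes were 5 of 28. COL3A1 (ENSSSCG00000016034), type III collagen, was listed with miR-769-5p at position 93588037 of chromosome 15 in both low-MM libraries of Pietrain and of Polish Large White, at normalized abundances of 0.00249, 0.0222, 0.019 and 0.00954. The abundances there were only 1, 1, 2 and 2, at category 3 or 4. The position was listed in none of the 6 high-MM libraries, 5 of which lack the deeper class of windows described below. By the tab names the same 4 libraries were 2 low and 2 high. LAMB2 and NID1, basement membrane proteins, were listed in 2 libraries each, and LAMA2 and LAMC1 under their own symbols in 1 each. GSN, the actin-severing gelsolin, was listed with miR-99b in 4 libraries, 3 of them low MM.

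Of 21 heat shock genes 3 were listed, and CRYAB and HSPB2, neighbouring small heat shock genes, shared a position with miR-125a in 3 low-MM libraries. Of 29 genes of protein breakdown 3 were listed (PSMD2 in 2 libraries, CAPN2 and FBXO32 in 1 each), and of 24 translation genes 5, at 10 positions, with EEF1D, EEF2 and EIF4G2 in 2 each. Of 34 genes of myogenic regulation and growth 4 were listed, IGF2, INSR, MEF2B and TEAD1, each in 1 library. The genes in the most libraries, CA3, ACTA1 and ENO3, are skeletal muscle genes. Of the markers of other cell types, 0 of 16 immune and blood genes were listed, and 2 of 20 endothelial, fat, nerve and smooth muscle genes, LPL and VIM, in 1 library each. Immune cell genes outside these short lists did occur, with CD6, CD226 and CIITA in 1 library each. The counts therefore do not show that other cell types are absent.

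Positions in any of the 15 lists made up 95 of the 471 (20.2%) and 19 of the 48 recurrent ones (39.6%). Among the 580 positions of the other nuclear interactions the share was 25 (4.31%). The matching limit is part of the selection, and the lists were chosen with these data known, so the shares are a description. A listed gene could lie on either strand. A gene was recorded at 397 of the positions and none at 74. Of the 397, 203 had a gene on strand 1, 147 on strand -1 and 47 on both, and every interaction was itself listed on both strands, so that the cut strand cannot be read from the tables.

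In the tables, a single cut could appear as a pair of positions. COX7A1 with miR-338-5p illustrates this. Over the 6 libraries together its cleavage position ran from 66 down to 35 as the window start moved along the chromosome, the start then jumped by 352 bases, and the cleavage position went on from 35 down to 12. Pietrain low MM replicate 2 held only 1 window on each side of the jump. Both positions had the same abundance and matching positions in every library. ENO3 with miR-769-5p did the same over 5 libraries, from 65 to 24 and, after a jump of 185 bases, from 23 to 13. Such pairs numbered 25, over 50 positions and 11 of the 48 recurrent ones. In 3 of them, with MYH4, HPSE2 and no gene at the first position, 1 cleavage position stood unchanged on both sides, so that no run is shown. The other 22 had jumps of 83 to 17938 bases. GSN, DARS (an aspartyl-tRNA synthetase) and COL3A1 showed it in 3 libraries each, and EEF2 and PFKFB1 in 2. Joining all 25 pairs left 446 cuts, 43 of them in at least 3 libraries.

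**Figure D4:**
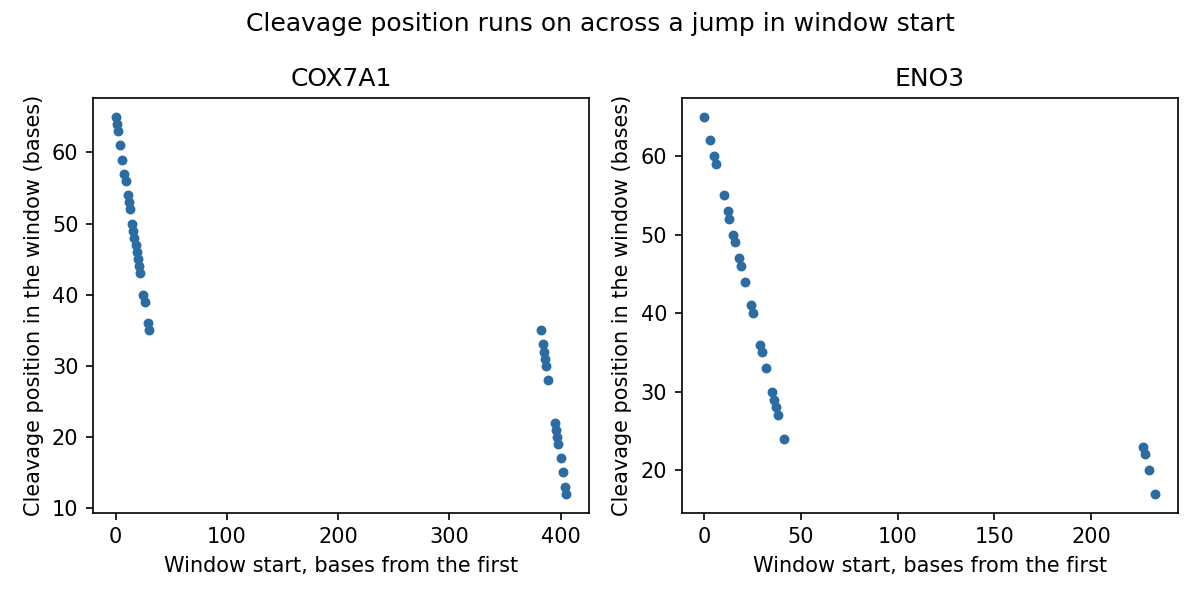
Cleavage position within the window (y axis, bases) against window start, counted from the first window (x axis, bases), for COX7A1 with miR-338-5p in Hampshire high MM replicate 2 and ENO3 with miR-769-5p in Hampshire low MM replicate 1, 1 point per window. The cleavage position falls steadily, and after a jump in window start of 352 bases in COX7A1 and 185 in ENO3 it goes on from about where it stopped.

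By miRNA, miR-4331-5p held 128 of the 471 positions and 166 of the 707 interactions (23.5%), against 537 of the 740 other nuclear interactions (72.6%). The next were miR-660 with 21 positions, miR-145-5p with 17, miR-181b with 13 and miR-574-3p with 10. Of the interactions 63 (8.91%) belonged to 6 of 10 muscle-enriched miRNAs, against 0.135% of the other nuclear ones, and the 26 positions they held included 6 recurrent ones. The miR-23, miR-27 and miR-24 clusters had 34 interactions (4.81%), let-7 had 17 (2.40%), the miR-17/92 relatives 15, miR-125, miR-99 and miR-100 together 14 and miR-30 7. The other nuclear interactions held 15 miRNA names, against 120 here.

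More than one miRNA name was listed at 16 positions. Mostly these were members of the same family. The names were miR-23a and miR-23b at ADAM19, AIMP1 and GMPS, miR-27a and miR-27b-3p at PSMD2, LAMC1 and WBP1L, miR-106a and miR-17-5p at GGNBP2, miR-196a and miR-196b-5p at TPM1, and 3 let-7 members at CCDC191. At MYBPC2, EIF4G2 and RACK1 the pair was miR-339-5p and miR-4334-3p. At such a position the tables cannot tell which of the miRNAs was paired with the cut.

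The best alignment score, 0, belonged to miR-133a-3p at position 106998923 of chromosome 6, where the listed genes were MIB1, a ubiquitin ligase, and MIR133A-2, a gene of that miRNA. It was listed in 2 libraries at category 4 and an abundance of 1. The next best, 1, belonged to miR-378 at position 47804817 of chromosome 14, and to miR-4331-5p at JOSD1 and UNC45A. The position was listed in 4 libraries at abundances of 1 to 3, in 3 of them as RF01892, with category 0 in Pietrain low MM replicate 2, 1 in Pietrain low MM replicate 1 and 4 in the other two. A score of 0 is thus found here at the weakest category, where a gene of the miRNA itself was listed. The CCNYL1 cut, category 0 in 6 of 6 libraries, had a score of 4.5. These 2 cuts do not show how score and category relate.

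Evidence grades differed between the selected and the other nuclear interactions. Category 0 or 1 was given to 226 of 707 (32.0%, Wilson 95% interval 28.6 to 35.5, counting error only), against 21 of 740 others (2.84%, 1.86 to 4.30) and 1 of 110 mitochondrial ones. The share was higher among the selected interactions in 12 of 12 libraries, at 21.9% to 45.5% against 0% to 11.8%. The 707 interactions fell on 488 combinations of miRNA and position, so they are not independent, which the interval leaves out. Category 0 was reached at 129 positions. At the same time 190 (26.9%) were category 4, against 0 of the 740. An abundance of exactly 1 was likewise found in 190 of the selected and 0 of the others, so this difference restates the one in abundance. The sources used here do not say whether the category uses the weighted abundance, from which the selection was made. Interactions with an equal value elsewhere had category 0 or 1 in 29.6% and those without in 32.6%.

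The alignment score gave a comparison that turned with 1 miRNA. A score of 3 or less was found in 15.7% of the selected interactions against 31.5% of the others, lower in 10 of 12 libraries. Without miR-4331-5p the shares were 48 of 541 (8.87%) and 0 of 203, which reverses the order. Category 0 or 1 kept its order without that miRNA, at 31.4% against 5.42%.

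The number of interactions per library followed the authors' normalization factor as well as MM. By the titles the 6 low-MM libraries held 56, 67, 59, 112, 135 and 63 (82 ± 33.2, SD, n = 6) and the 6 high-MM libraries 22, 40, 32, 83, 25 and 13 (35.8 ± 24.8). The groups overlapped in a single library, Pietrain high MM replicate 2, with 83. By the tab names the means were 72.7 ± 34.8 and 45.2 ± 36.5. The authors' normalization factor, the normalized divided by the weighted abundance, was split here at 0.15. Windows with a factor below this are called the deeper class and the others the shallower class. These names are a reading of the factor, since no label gives read depth. The 7 libraries with windows of the deeper class, 6 low and 1 high MM, held 56 to 135 interactions, and the 5 without, all high MM, held 13 to 40. Within the shallower class the 6 high-MM libraries averaged 28.3 ± 10.3 and the 4 low-MM libraries that had it 30.8 ± 18.6, which differ by less than the spread within either. The class of the factor and MM cannot be told apart over the whole tables. Breed means were 46.3 ± 19.6 for Hampshire, 71.5 ± 34.1 for Pietrain and 59 ± 55.0 for Polish Large White (n = 4 each).

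**Figure D5:**
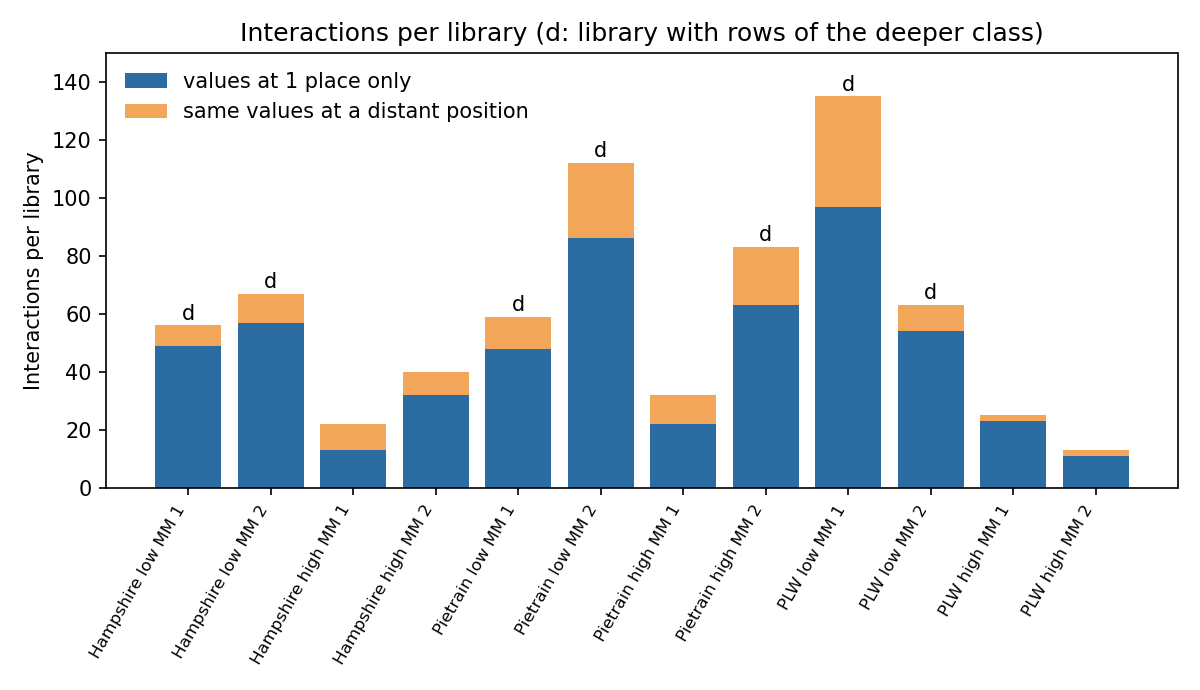
Interactions per library (y axis) for the 12 libraries (x axis), split into those without (blue) and with (orange) the same abundance and matching positions at a distant position, and with d over libraries that hold windows of the deeper class. The 7 libraries marked d hold 56 to 135 interactions and the 5 others 13 to 40.

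Presence of each named interaction was compared between low and high MM by a two-sided exact permutation test within breeds (216 relabellings, Benjamini-Hochberg over the 202 named interactions in 2 to 10 libraries). Of the 108 selected interactions tested, 0 were called at an adjusted p of 0.05, with a background of 0% over all 202, and 0 had an unadjusted p below 0.05. A single interaction cannot be called, since the smallest p possible, 0.00926, would have to be reached by 38 of the 202. The smallest exact permutation p among those selected was 0.0556, at COL3A1 with miR-769-5p, listed in 4 low- and 0 high-MM libraries (adjusted p of 1). The CCNYL1 and PM20D2 positions, in 5 low- and 1 high-MM libraries, each had an exact p of 0.0833. ENO3, in 1 low- and 5 high-MM libraries, had 0.120.

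In direction, 72 of the 108 (66.7%) were listed in more low-MM libraries, 9 in more high-MM libraries and 27 in equal numbers, against 112, 20 and 70 of all 202 (55.4% more low). Among the 48 recurrent positions, 38 were listed in more low-MM libraries, 6 in more high-MM libraries (ACTA1, ACTG1, both ENO3 positions, GPI and HP/TXNL4B) and 4 in equal numbers. Low-MM libraries alone listed 11 of the 48, and high-MM libraries alone 0. By the tab names low-MM libraries alone listed 3, and 32 of the 48 were listed more in low MM, 8 more in high and 8 equally. By the titles all 6 low-MM libraries and 1 high-MM library held the deeper class, and its part in these counts was not tested.

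Between breeds, 0 of the 108 were called by the exact permutation test over 34650 partitions with the same adjustment (0 of 202 in the background). Here too a single interaction cannot be called, since the smallest p possible, 0.00606, would have to be reached by 25 of the 202. At an unadjusted p below 0.05 there was 1 of 202 (0.495%), which is not among the selected interactions. The smallest exact permutation p among the selected was 0.200, at the CAPN3/ZNF106 position with miR-150 (1 Hampshire, 3 Pietrain and 0 Polish Large White libraries) and at the RF01892 position with miR-378.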

How the data were processed

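PAREsnip tables from 12 PARE libraries of pig loin muscle were used. The submitters' processing notes name CASAVA 1.8.2 and FastQC, and the sources used here give no aligner, genome build or row filter. The deposited category and alignment score were treated as score values. Fragment abundance was treated in the same way, a choice made here, since its name gives no unit. The deposited p-value has 2 decimals and reaches at most 0.05. Both abundances that the authors derived from the fragment abundance, weighted and normalized, are signal values, and read depth is unknown. Weighted values that look like dates, in 10 windows of Hampshire high MM replicate 2, were recomputed from the normalized value. Names from other species (140 windows) and 1 unprefixed let-7i window were left out.

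Tables were analysed with Python 3.11.15, pandas 2.3.3, numpy 2.4.6, scipy 1.17.1 and matplotlib 3.10.9. A symbol was found for 355 of 381 gene identifiers. Category and alignment score are the lowest over windows. Named genes are the positions in the most libraries (at least 3 libraries, up to 25), up to 10 at category 0, up to 3 leading members per gene list and up to 5 on each side of the limit. Other genes named were chosen after their values were seen. The permutation tests were checked on simulated presence data. The p-values measure the spread between these libraries. Alternatives were other matching limits, categories, p, tab names, single libraries, breeds, windows and the replicate number as a block. Members and lists were chosen with earlier results of these data known. The design text speaks of chickens, while all samples are labelled pig.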

Additional observations from a re-analysis of the deposited data

Results flagged for a closer look

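In 4 of the 23 groups checked, 1 library stood apart from the others of its group. About 1 group in 20 does so by chance. The share of a library's interactions that were selected was 53.2% in Pietrain high MM replicate 2, against 6.47% to 19.3% in the other 5 high-MM libraries, and it is the only high-MM library with windows of the deeper class. The same library had a normalized abundance of 0.148 at ACTG1/TSPAN10 with miR-542-3p, against 0.0180 to 0.0308 in the other 3 high-MM libraries that listed it. At PM20D2 with miR-4331-5p, Polish Large White low MM replicate 1 had 0.731, against 0.0780 to 0.178 in the other 4 low-MM libraries. At ENO3 with miR-769-5p, Hampshire high MM replicate 2 had 0.0196, against 0.00594 to 0.00817 in the other 4 high-MM libraries, at an abundance of 3 against 1 or 2.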

How the results depend on the processing

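The difference in interactions per library, high minus low MM, was -46.2. It was -2.42 with the shallower class alone, over the 6 high-MM and the 4 low-MM libraries that hold that class. With the low-MM libraries that lack it counted as 0, the means were 28.3 in high MM and 20.5 in low MM. The sign is then reversed. With windows counted in place of interactions the difference was -332.7, and the cause was not tested. The difference kept its sign at -39 to -57.3 with a limit of 35 or 140, at -29.7 with categories 0 to 2, -29 with a deposited p of at most 0.02 and -27.5 by the tab names. Leaving out each library gave -55.6 to -35.6. The 48 positions in at least 3 libraries became 12 with the shallower class alone and 20 with categories 0 to 2, both built on fewer interactions. They became 32 with a limit of 35 or a deposited p of at most 0.02, and 49 with a limit of 140. With each library left out there were 35 to 47. Among alternatives chosen after seeing the data, joined pairs gave 43, no equal values elsewhere 40 and no miR-4331-5p 38, and the difference in interactions was -37.8 without equal values and -36.8 without that miRNA. The leading cuts depend on the limit. At 35, CA3 with miR-499-5p went from 11 libraries to 0, CA3 with miR-378 from 10 to 1, ACTA1 from 9 to 0 and ENO3 from 6 to 0. ACTG1, CCNYL1 and ADAM19 stayed at 7, 6 and 5. With the shallower class alone CCNYL1 went to 2 and ADAM19 to 1, while the CA3 positions kept 8 and 9 and ENO3 6.

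Calls between MM groups and between breeds stayed at 0 under each alternative run and each library left out (0 to 0), which says nothing about stability, since there was no call to lose. With a replicate block the count of calls was 0 and the difference in interactions -46.2. Libraries of the same number correlated at 0.0032, -0.0033 and 0.042 in the 3 breeds, and the labels give no pairing by number. These values alone cannot exclude a pairing, since no correlation of differently numbered libraries is given beside them. By the tab names 1 interaction had an unadjusted exact p of 0.0278, and none passed adjustment. An unadjusted exact p below 0.05 also arose between MM groups in some runs with 1 library left out, so it is not particular to the tab names. Read depth is not given, so an unlisted position may be a cut that was not sampled.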
